A study of Mus musculus with 6 samples.

Results

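Interferon response genes were followed in LKS+ cells of the mouse bone marrow, a lineage-negative fraction with much c-Kit and Sca-1 on its surface, in which the hematopoietic stem cells and multipotent progenitors are found. A list of 40 genes known to be raised by interferon was used, and among the probe sets annotated to a gene symbol alone the brightest one, by its mean of the 6 arrays, stood for the gene. This gave values for 38 of the 40 genes, out of 18193 genes measured in all. Isg15 and Ifi44 were not analysed here. The study compared 3 arrays of LKS+ cells from Apcmin mice with 3 arrays from wild-type (WT) mice. In Apcmin mice the Min mutation puts an early stop into Apc, which encodes a scaffold of the complex that marks beta-catenin for degradation. The labels give no treatment, age, sex, strain or litter, and call for at least 20000 sorted cells per mouse at a purity above 90%. No label names the animals, so the p-values below measure the spread between these arrays, taken as 1 mouse each.

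Interferons are secreted proteins that cells release when they sense viral nucleic acid. Type I interferon binds the receptor Ifnar1/Ifnar2, the kinases Jak1 and Tyk2 act on Stat factors, and a complex that holds Stat2 and Irf9 binds the interferon-stimulated response element (ISRE) of target genes. Type II interferon acts on a second DNA element, the gamma-activated site (GAS). In hematopoietic stem cells interferon is known to end quiescence for a time. A surface protein used in this sort is itself known to be raised by interferon. The gate and the response may therefore not be independent, which was not tested here.

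The promoters of the listed genes show these elements in their letters. A RefSeq promoter window (GRCm38.p6, 250 bases before the start site and 50 after it) was at hand for 33 of the 40 genes. The ISRE letters, searched as GAAA, any 2 bases and GAAA again and read on both strands, were present in 18 of these 33 genes (54.5%), against 3.99% of the 27025 genes with a window and 3.44% of the 32851 windows. Overlapping matches occurred, as in Gbp3 and Irgm1, and 8 of the 33 genes held 2 or more. The GAS letters TTCNNNGAA, which read the same on both strands, were present in 10 of the 33 genes (30.3%), against 9.55% of all genes. A match is a description of the letters and does not show that a factor binds there, and the list was drawn up as interferon targets. The following stretches hold the 200 bases before the start site of 6 genes, 5′ to 3′ on the strand of the gene, with ISRE and GAS letters in capitals. They were chosen to show the paired ISRE letters of neighbouring Ifit genes, the joined GAS and ISRE letters of a pair of GTPase genes, a single ISRE match in the member that followed the rest most closely, and GAS letters alone.
Ifit1 (chr19:34640689-34640888, plus strand): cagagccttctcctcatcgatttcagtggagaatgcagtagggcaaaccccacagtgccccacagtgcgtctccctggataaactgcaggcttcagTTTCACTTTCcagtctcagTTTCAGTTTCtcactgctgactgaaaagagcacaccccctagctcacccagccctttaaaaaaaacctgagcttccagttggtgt
Ifit3 (chr19:34583329-34583528, plus strand): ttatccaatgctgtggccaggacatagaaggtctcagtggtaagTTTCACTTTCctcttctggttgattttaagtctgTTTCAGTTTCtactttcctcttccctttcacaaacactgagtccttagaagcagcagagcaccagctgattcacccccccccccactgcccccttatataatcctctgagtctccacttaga
Rsad2 (chr12:26456453-26456652, minus strand): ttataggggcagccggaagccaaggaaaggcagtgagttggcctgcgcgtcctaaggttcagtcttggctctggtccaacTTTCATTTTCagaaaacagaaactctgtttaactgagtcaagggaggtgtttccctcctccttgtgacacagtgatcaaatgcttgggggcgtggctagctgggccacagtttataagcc
Igtp (chr11:58199356-58199555, plus strand): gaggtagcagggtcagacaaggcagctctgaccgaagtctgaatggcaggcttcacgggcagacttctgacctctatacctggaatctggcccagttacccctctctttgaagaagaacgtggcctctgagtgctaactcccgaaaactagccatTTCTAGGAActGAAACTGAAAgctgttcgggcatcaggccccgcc
Irgm2 (chr11:58214777-58214976, plus strand): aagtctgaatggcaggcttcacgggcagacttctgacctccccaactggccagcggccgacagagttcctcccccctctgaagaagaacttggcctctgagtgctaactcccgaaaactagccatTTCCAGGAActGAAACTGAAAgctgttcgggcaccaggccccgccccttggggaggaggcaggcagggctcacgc
Irf1 (chr11:53769814-53770013, plus strand): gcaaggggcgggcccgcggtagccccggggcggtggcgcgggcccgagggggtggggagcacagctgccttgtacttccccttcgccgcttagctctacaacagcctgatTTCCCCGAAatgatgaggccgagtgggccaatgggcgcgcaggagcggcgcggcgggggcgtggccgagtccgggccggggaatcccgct
In Ifit1 the ISRE matches begin at positions -104 and -85 from the start site, and in Ifit3 at -156 and -122. The start site used for Ifit3 lies 410 bases inside the annotated gene, while that of Ifit1 lies at the edge of its gene. Both genes carry the same letters in the same order, TTTCACTTTC and then TTTCAGTTTC. In Igtp the GAS letters begin at -45 and the ISRE letters at -34, and in Irgm2 at -75 and -64. The stretches of these neighbouring genes were identical at 118 of 170 bases (69.4%) when laid against each other at a shift of 30 bases without gaps. Psmb9 and Tap1 are transcribed away from each other from overlapping windows, and neither window held either set of letters.

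All values below are log2 of the normalized intensities that the authors deposited, and a difference is Apcmin minus WT. The median log2 intensity per array lay between 4.14 and 4.17 in Apcmin and between 4.12 and 4.18 in WT. Apc itself was at 7.87, 7.82 and 7.70 in Apcmin and 7.61, 7.76 and 7.78 in WT (difference 0.08, limma, adjusted p = 0.963). Min is a point mutation, so the level of Apc does not check the labels. Of the LKS+ markers measured, 8 of 9, all had means of at least 6, among them Kit, Cd34, Flt3 and Gata2. Genes used as markers of other blood cells were looked at too. A mean of at least 6 was found in 1 of 7 T and NK markers (Nkg7) and 2 of 5 B cell markers (Ighm and Cd79b). The same held for 3 of 9 macrophage and monocyte markers (Csf1r, Cd68 and Ccr2) and 5 of 5 neutrophil markers. The mean was under 4 in 5, 3, 5 and 0 of the markers on these lists. Whether the bright ones were transcribed in LKS+ cells or in other cells was not tested. Y-linked genes were high on Apcmin replicate 2 and WT replicate 3 (mean log2 intensity 7.04 and 7.32) and between 0.98 and 1.23 on the other arrays, so each genotype held 1 array with Y-linked transcripts. The LKS+ fraction is a mixture of stem cells and progenitors, and a smaller share of cells with a response cannot be told apart from less RNA per cell.

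Interferon response genes were expressed in LKS+ cells of both genotypes, since 37 of the 38 had a mean of at least 6, against 8658 of all 18193 genes. Between the genotypes 28 of the 38 were lower on average in Apcmin and 10 were higher, and the median difference was -0.11. Over all genes 57.0% had a lower mean in Apcmin (median difference -0.04), and over genes with a mean of at least 6, 43.7% did (median 0.02). These counts rest on 1 probe set per gene. There were 22 further probe sets in 14 members, of which 10 shared the sign of the brightest one. With all probe sets of a gene averaged, the median difference was -0.06 over the members and -0.04 over all genes. No member passed the test. In limma 0 of the 38 had an adjusted p under 0.05 and 0 an unadjusted p under 0.05. Over all 45037 probe sets the counts were 0 and 1714 (3.81%). Over the 8658 genes with a mean of at least 6 they were 0 and 116. Of all genes 1.89% had such an unadjusted p with a lower mean in Apcmin and 1.22% with a higher one. The smallest adjusted p among the members was 0.954. In 3 members, Trim25, Mx2 and Igtp, all Apcmin values lay below all WT values, which is 3 of 38 against 7.73% of all genes and 7.63% of genes with a mean of at least 6, a share near that background. Without WT replicate 3 the count was 11, against 32.8% of all genes, and 10 of these members were lower in Apcmin, against 22.5%. Without Apcmin replicate 2 the count was 14, against 17.2% of all genes, and 13 of these members were lower in Apcmin, against 9.43%. Without WT replicate 2 it was 6, against 15.1%, without Apcmin replicate 1, Apcmin replicate 3 or WT replicate 1 it was 4 each, against 14.3%, 16.9% and 13.8%. The 95% confidence interval of the difference had a median half-width of 0.41, and in 34 of the 38 members it lay within 1 log2 unit, a 2-fold change, of 0 on both sides. The 4 members with wider intervals were Mx1, Rsad2, Oas2 and Ifit3.

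**Figure D1:**
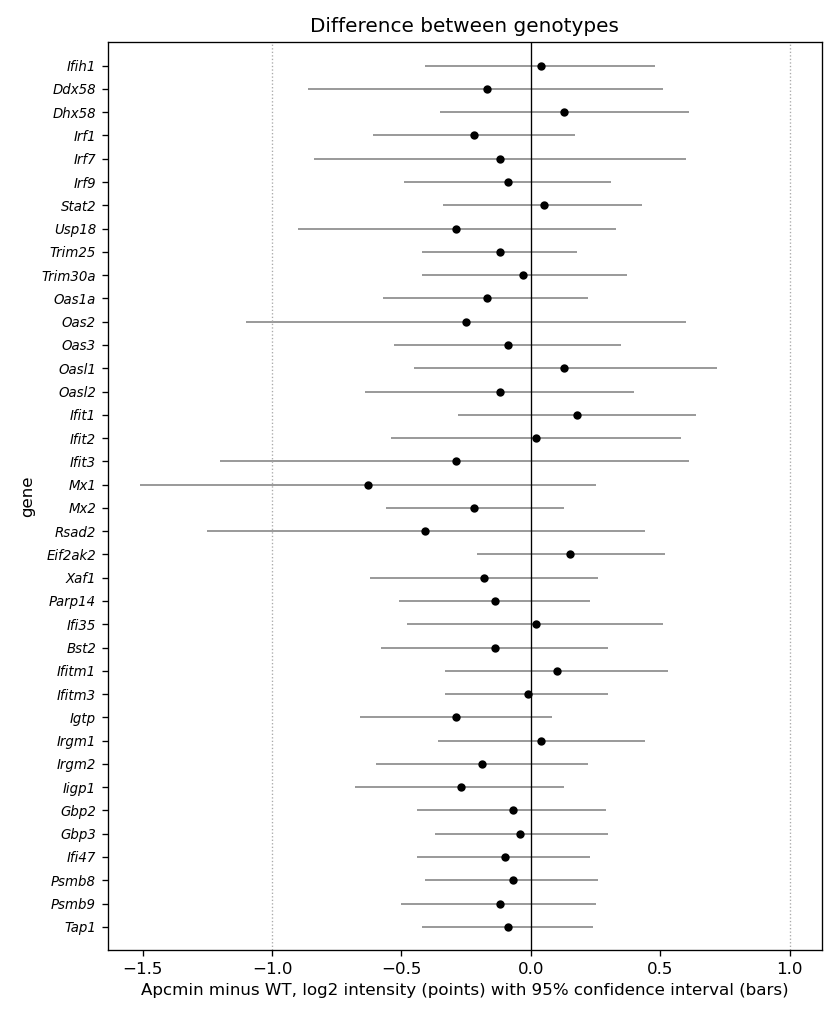
Difference between genotypes (Apcmin minus WT, log2 intensity, horizontal axis) for each of the 38 measured interferon response genes, listed by role from top to bottom, as points with 95% confidence intervals from limma (3 arrays per genotype). Every interval includes 0, and those of Mx1, Rsad2, Oas2 and Ifit3 pass the dotted line at -1.

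Among the receptors that sense viral RNA, Ifih1 (MDA5) was at 7.77, 7.62 and 7.81 in Apcmin and 7.81, 7.92 and 7.36 in WT, so that the groups overlapped. Ddx58 (RIG-I) was at 7.15, 6.82 and 6.38 in Apcmin and 7.22, 6.45 and 7.20 in WT. Dhx58 (LGP2), which modulates the other sensors, was at 7.28, 7.57 and 6.96 in Apcmin and 7.08, 7.35 and 6.99 in WT. The differences of these sensors were 0.04, -0.17 and 0.13, each within its standard error of 0.19 to 0.29. Their arrays did not move together, and the median correlation between them over the 6 arrays was -0.12.

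Of the transcription factors, Irf1, which responds to type II interferon and whose promoter stretch above holds GAS letters, was at 8.91, 9.05 and 8.79 in Apcmin and 8.98, 9.36 and 9.07 in WT. Its difference of -0.22 (SE 0.16) had an adjusted p of 0.954. Irf9, the DNA-binding part of the type I interferon complex, was at 8.02, 8.23 and 7.82 in Apcmin and 8.16, 7.95 and 8.22 in WT, a difference of -0.09. Irf7, which amplifies the type I response, ranged more widely, at 6.53, 7.05 and 6.63 in Apcmin and 7.43, 6.83 and 6.31 in WT. For Irf7 the highest and the lowest of the 6 values were both WT arrays. Stat2, a further part of that complex, differed by 0.05 and had its highest value on Apcmin replicate 3.

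Usp18 removes ISG15 from proteins and restrains the type I interferon receptor. It was at 7.56, 7.84 and 7.29 in Apcmin and 8.34, 7.70 and 7.51 in WT, a difference of -0.29 (SE 0.26). WT replicate 1 lay above every other array for Usp18, and without it the difference was -0.04. Trim25, a ubiquitin ligase that acts on RIG-I, was at 10.24, 10.31 and 10.24 in Apcmin and 10.39, 10.37 and 10.38 in WT. Those groups did not overlap, but the difference was -0.12 (0.921-fold, SE 0.13, adjusted p = 0.954), and a further Trim25 probe set at a mean of 9.04 had a difference of 0.00. Trim30a, a member of the Trim family, was at 10.55, 10.47 and 10.18 in Apcmin and 10.58, 10.31 and 10.38 in WT. Its difference was -0.03, and 0.28 when both Trim30a probe sets were averaged.

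Enzymes of the OAS family make 2′-5′ oligoadenylates, the messengers that activate an RNA-cutting enzyme in infected cells. Oas1a was at 8.13, 8.28 and 8.10 in Apcmin and 8.59, 8.30 and 8.14 in WT. Oas2 was at 6.46, 7.15 and 6.33 in Apcmin and 7.58, 6.75 and 6.38 in WT. In both genes WT replicate 1 was highest overall and Apcmin replicate 2 was highest within Apcmin. Oas3 was at 8.53, 8.72 and 8.24 in Apcmin and 8.70, 8.69 and 8.36 in WT, and Apcmin replicate 3 was lowest in all 3 of these genes. Their differences were -0.17, -0.25 and -0.09 (SE 0.17, 0.36 and 0.19), with adjusted p-values of 0.954, 0.956 and 0.968. Oasl2, a related protein, differed by -0.12 and Oasl1, which restrains Irf7 translation, by 0.13.

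Products of the Ifit genes bind viral RNA. Ifit1 was at 7.24, 7.56 and 7.0 in Apcmin and 7.23, 7.14 and 6.88 in WT, with a difference of 0.18 (SE 0.19), which was 0.04 without Apcmin replicate 2. Ifit3 was at 6.38, 6.56 and 6.13 in Apcmin and 7.27, 6.90 and 5.77 in WT, a difference of -0.29 (SE 0.38). The WT arrays of Ifit3 spanned 1.5 log2 units, and all 3 Apcmin arrays lay inside that span. Ifit2 was at 7.71, 7.08 and 7.86 in Apcmin and 7.38, 7.70 and 7.52 in WT, a difference of 0.02. Apcmin replicate 2, the highest Apcmin array for Ifit1 and Ifit3, was the lowest of all for Ifit2.

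With the brightest probe sets, the 2 lowest differences were those of the antiviral effectors Mx1 and Rsad2. Mx1, a dynamin-like GTPase that blocks influenza virus, was at 6.75, 7.28 and 6.68 in Apcmin and 8.18, 7.66 and 6.77 in WT. Its difference of -0.63 (0.645-fold, SE 0.37, 95% interval -1.51 to 0.25) had an adjusted p of 0.954, and the groups overlapped because WT replicate 3 lay among the Apcmin values. Without WT replicate 3 the Mx1 difference was -1.02, and without WT replicate 1 it was -0.31. Rsad2 (viperin), which makes an antiviral nucleotide, was at 8.78, 9.18 and 8.14 in Apcmin and 9.66, 9.07 and 8.59 in WT, a difference of -0.41 (SE 0.36). Leaving out WT replicate 1 or Apcmin replicate 3 gave -0.13 for Rsad2, and leaving out WT replicate 3 gave -0.67. A second bright Rsad2 probe set differed by -0.45 (SE 0.21, adjusted p = 0.954), at 7.59, 7.45 and 7.46 in Apcmin and 8.32, 7.93 and 7.58 in WT. Mx2, the other Mx gene, was the dim member, at 3.64, 3.82 and 3.78 in Apcmin and 3.88, 3.89 and 4.12 in WT. Mx2 was the only member with a mean under 6. Xaf1, a regulator of apoptosis, was at 9.16, 9.43 and 8.86 in Apcmin and 9.43, 9.34 and 9.23 in WT, a difference of -0.18 (0.49 when averaged with a second, dim Xaf1 probe set). Ifi35, an interferon-induced leucine zipper protein, was at 10.11, 10.74 and 10.19 in Apcmin and 10.49, 10.22 and 10.27 in WT. Parp14, an ADP-ribosyltransferase, differed by -0.14, and Eif2ak2 (PKR), the kinase that halts translation on double-stranded RNA, by 0.15, though neither further Eif2ak2 probe set had the same sign.

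Membrane proteins that hold viruses back had differences between -0.14 and 0.10. Bst2 (tetherin), which retains budding virus, was at 8.39, 8.78 and 8.57 in Apcmin and 8.97, 8.70 and 8.5 in WT. Ifitm1, which blocks virus entry, was at 11.05, 11.46 and 11.22 in Apcmin and 11.03, 11.0 and 11.39 in WT. Its relative Ifitm3 was at 11.58, 11.69 and 11.52 in Apcmin and 11.64, 11.61 and 11.59 in WT. Over all 6 arrays Ifitm3 spanned 0.17 log2 units (1.12-fold), and its difference was -0.01 with a 95% interval from -0.33 to 0.30.

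Interferon-inducible GTPases, which act on the vacuoles of intracellular pathogens, had a lower mean in Apcmin in 6 of 7 members, with a median difference of -0.10. After a further quantile normalization 7 of 7 were lower (median -0.12). When all probe sets of a gene were averaged 5 of 7 were lower (median -0.04). Lower means were found in 57.0% of all genes and 43.7% of genes with a mean of at least 6. The count was 5 without Apcmin replicate 3 or WT replicate 3 and 7 without Apcmin replicate 1, and no GTPase gene passed the test. Igtp (Irgm3) was at 8.08, 8.04 and 7.79 in Apcmin and 8.31, 8.36 and 8.12 in WT, so that the groups did not overlap. Its difference of -0.29 (0.816-fold, SE 0.16, 95% interval -0.66 to 0.08) had an adjusted p of 0.954, and stayed between -0.37 and -0.20 without each array in turn. Iigp1 (Irga6) was at 6.95, 7.10 and 6.76 in Apcmin and 7.36, 7.27 and 7.0 in WT, a difference of -0.27. A further Iigp1 probe set at a similar mean went the other way (0.26), so the Iigp1 difference depended on the probe set. Irgm2 was at 7.97, 8.49 and 8.23 in Apcmin and 8.36, 8.43 and 8.48 in WT, and Ifi47 at 9.48, 9.48 and 9.25 in Apcmin and 9.52, 9.46 and 9.54 in WT. Irgm1, Gbp2 and Gbp3, the remaining GTPases, differed by 0.04, -0.07 and -0.04. A further Gbp2 probe set with a mean of 6.48 went the other way (0.20).

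Genes of antigen processing differed little. Psmb8, an immunoproteasome subunit, was at 10.12, 10.34 and 10.13 in Apcmin and 10.21, 10.33 and 10.28 in WT. Psmb9, a further subunit, was at 9.87, 10.27 and 10.01 in Apcmin and 10.24, 10.15 and 10.13 in WT. Tap1, which carries peptides into the endoplasmic reticulum, was at 9.19, 9.28 and 9.18 in Apcmin and 9.32, 9.41 and 9.19 in WT. The 3 differences lay between -0.12 and -0.07, and the 95% intervals ran from -0.50 at the lowest to 0.26 at the highest.

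Most of the variation of the members lay between arrays of the same genotype. Genotype held a median of 11.4% of a member's variance over the 6 arrays, against 12.4% in all genes with a mean of at least 6. The spread within a genotype had a median SD of 0.18 in the members and 0.18 in all genes with such a mean. A few members stood apart from that median. The range over the arrays was at least 1 log2 unit in 6 of the 38 members (15.8%), Irf7, Usp18, Oas2, Ifit3, Mx1 and Rsad2, against 9.08% of genes with a mean of at least 6. Rsad2 spanned 2.87-fold, Mx1 and Ifit3 2.82-fold each and Oas2 2.37-fold between the highest and the lowest array. In those 4 genes at most 2.54% of genes with a mean of at least 6 had a larger SD within genotypes.

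**Figure D2:**
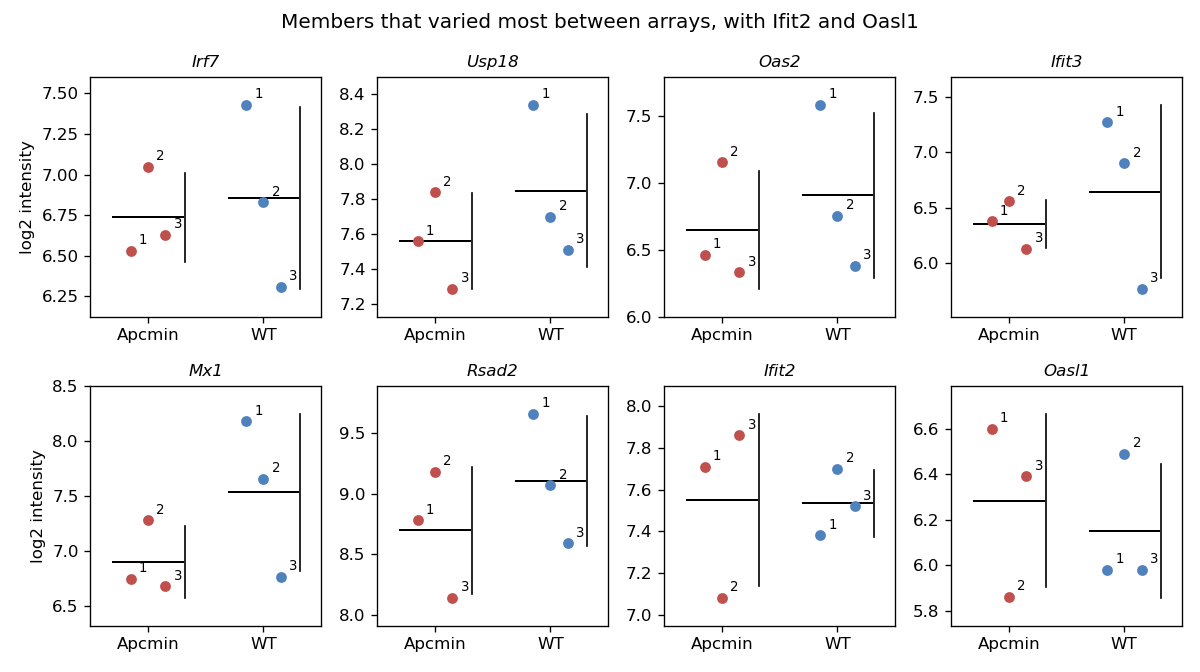
Log2 intensity (vertical axis) on each array for the 6 members with a range of at least 1 log2 unit and for Ifit2 and Oasl1, with the replicate number beside each point, the mean as a horizontal line and 1 SD either side as a vertical line (3 arrays per genotype). WT replicate 1 is the highest array in the first 6 genes, while Apcmin replicate 2 is the lowest in Ifit2 and Oasl1.

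The variation was shared by many of the members. WT replicate 1 held the highest value of 14 of the 38 members (36.8%) and the lowest of 0, whereas in genes with a mean of at least 6 it held the highest value in 18.7% and the lowest in 28.0%. Apcmin replicate 3 held the lowest value of 18 members (47.4%), against 14.0% of those genes. Within Apcmin, replicate 2 stood out upward, with 28 of 38 members above their own mean over the arrays, against 12 on Apcmin replicate 1 and 7 on Apcmin replicate 3. Within WT, 29 members were above their own mean on replicate 1, 25 on replicate 2 and 13 on replicate 3. As shares of the 38 these are 31.6%, 73.7% and 18.4% on Apcmin replicates 1, 2 and 3 and 76.3%, 65.8% and 34.2% on the WT replicates. Of genes with a mean of at least 6, 56.9%, 51.0% and 51.6% were above their own mean on the Apcmin replicates. On the WT replicates 44.6%, 46.3% and 59.0% were. The median deviation of the members from their own means was -0.09, 0.06 and -0.15 on the Apcmin arrays and 0.10, 0.05 and -0.05 on the WT arrays, so the genotypes overlapped in this measure. Y-linked transcripts were present on Apcmin replicate 2 and WT replicate 3, which lay at opposite ends of their own groups.

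**Figure D3:**
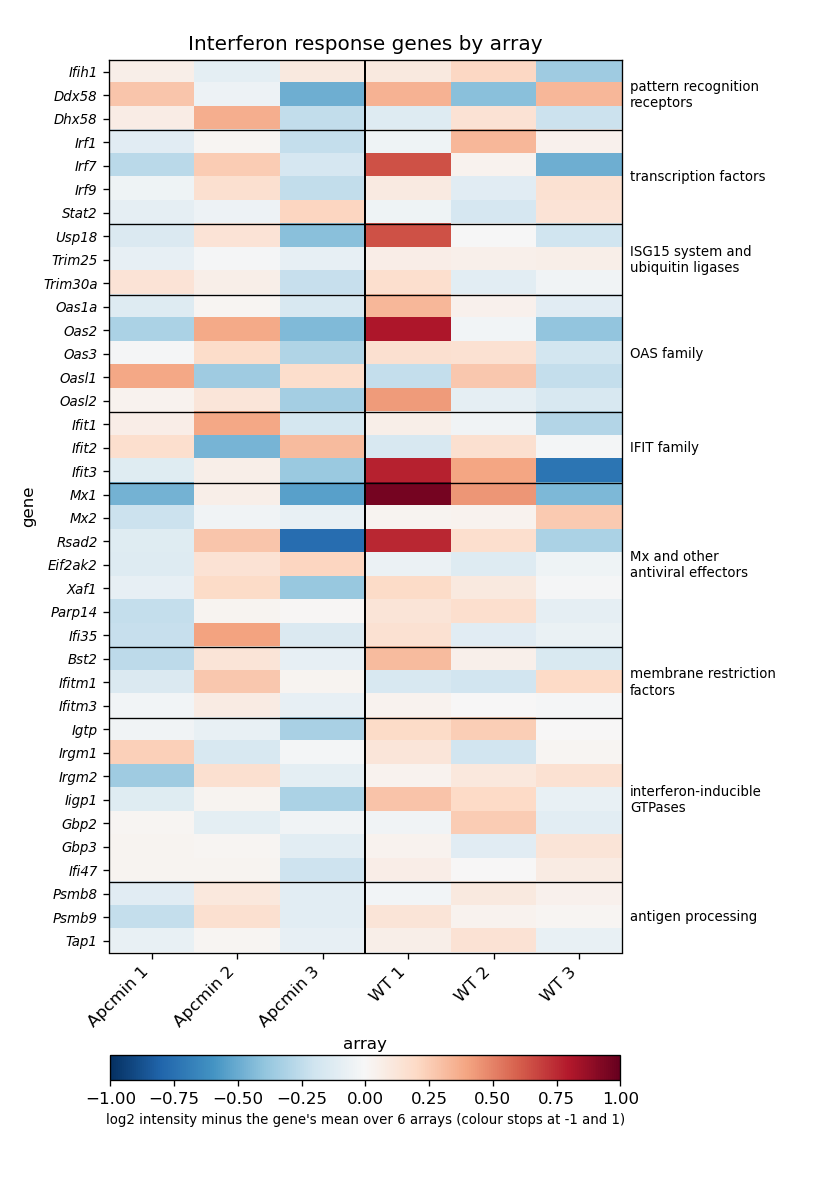
Log2 intensity of each of the 38 members (rows, grouped by role) on each array (columns, Apcmin left of WT), as the deviation from the gene's own mean over the 6 arrays. Red cells gather on WT replicate 1 and blue cells on Apcmin replicate 3, where 14 members have their highest and 18 their lowest value.

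Pairs of members correlated with a median r of 0.31 over the 6 arrays (703 pairs), against 0.02 between pairs of the 8658 genes with a mean of at least 6. An r of at least 0.5 was reached by 35.0% of the member pairs and 18.6% of the pairs of those genes. With the genotype means taken out the median was 0.29. All pairs share the same 6 arrays, and with so few arrays the correlations are given as a description without a test. Rsad2 followed the mean of the other members most closely (r = 0.96, rho = 0.94), and Xaf1, Iigp1, Usp18, Oas2, Mx1, Oas1a and Oas3 followed it with r between 0.88 and 0.94. These r are for the brightest probe set of each gene. On the further Iigp1 probe set (mean 7.04) WT replicate 1 was at 6.85, below WT replicate 2 at 7.12. On the second bright Rsad2 probe set WT replicate 1 was highest, at 8.32, but Apcmin replicate 2 was lowest within Apcmin, at 7.45. In all, 16 of the 38 members had an r of at least 0.7. The opposite sign was found in 6 members, Ifit2 (-0.75), Stat2 (-0.66), Oasl1 (-0.59), Eif2ak2 (-0.35), Irgm1 (-0.30) and Ifitm1 (-0.16). For Eif2ak2 the order of the arrays depended on the probe set. Apcmin replicate 3 was highest on its brightest probe set, at 8.84. On a further one (mean 8.42) that array was at 8.36, below WT replicates 1 and 2 at 8.53 and 8.59. Without WT replicate 1 the r of Rsad2 was 0.94, that of Oas2 0.86 and that of Mx1 0.83.

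**Figure D4:**
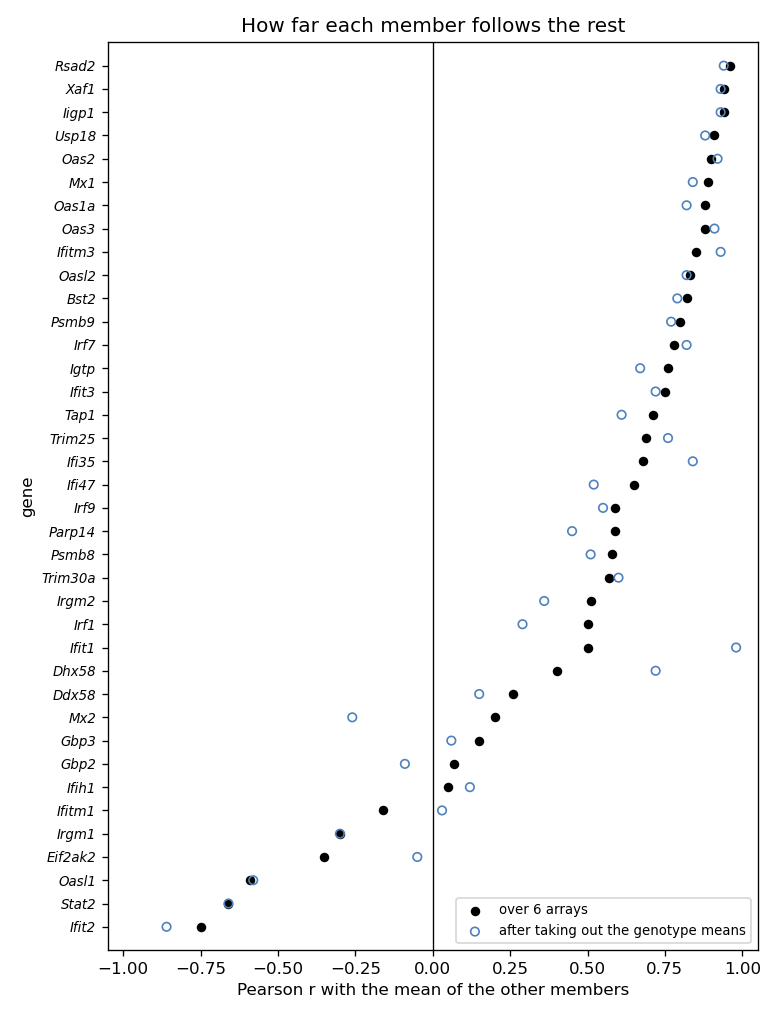
Pearson correlation over the 6 arrays of each member with the mean of the other members (filled points, horizontal axis), and the same after the genotype means were taken out (open points). Rsad2 is at the top with 0.96, and 6 members from Ifitm1 to Ifit2 lie below 0.

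Neighbours on a chromosome did not always vary together. Of 14 pairs of members within 200000 bases of each other, 7 had an r of at least 0.5 and 4 were below 0, with a median of 0.41, against 0.31 over the other 689 pairs. Oas1a and Oas2 varied together (r = 0.94), and so did Psmb8 and Psmb9 (0.77), while Ifit1 and Ifit2 (-0.70) and Gbp2 and Gbp3 (-0.67) ran in opposite directions. Igtp and Irgm2, whose promoter stretches hold the same arrangement of letters, had an r of 0.31. Members with and without ISRE letters showed the array pattern. On WT replicate 1, 14 of the 17 measured members with ISRE letters and 9 of the 14 with a window but no ISRE letters were above their own mean. On Apcmin replicate 3 the counts were 3 of 17 and 3 of 14. Of genes with a mean of at least 6, 44.6% were above their own mean on WT replicate 1 and 51.6% on Apcmin replicate 3.

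Among 8621 genes outside the list with a mean of at least 6, those closest to the mean profile of the members were Trafd1, Dipk1b, Plekhb2, Osbpl11 and Pros1, with r between 0.974 and 0.986. Trafd1, a TRAF-type zinc finger protein that restrains innate immune signalling, was at 8.69, 8.93 and 8.44 in Apcmin and 9.15, 8.94 and 8.77 in WT. These correlations are over 6 arrays and were picked as the highest, so no test was made.

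Other genes of the interferon pathway were measured for 69 of 76 listed, and 0 passed the test, with 25 higher and 44 lower in Apcmin and a median difference of -0.05. An unadjusted p under 0.05 was found for 2 of the 69, Tlr3 and the dim Cxcl9, against 3.11% of all genes. The ligand genes were near the bottom of the intensity range, since all 6 interferon genes measured had means between 1.29 and 3.51. Ifnar1, a chain of the type I interferon receptor, was at 7.71, 7.80 and 7.67 in Apcmin and 8.05, 7.93 and 8.0 in WT. Its groups did not overlap, and its difference was -0.27 (0.831-fold, SE 0.13, 95% interval -0.58 to 0.05, adjusted p = 0.954). The partner chain Ifnar2 differed by -0.11 and the receptor-bound kinases Jak1 and Tyk2 by -0.12 and -0.16. None of the further probe sets of Ifnar2 (2), Tyk2 (1) or Ifngr2 (1) shared the sign, and Jak2 and the type II receptor chain Ifngr2 differed by 0.12 and 0.08. Of the 17 receptors, kinases and factors measured, 4 were higher and 13 lower in Apcmin. Irf8, a factor of monocyte and dendritic cell development, differed by -0.31, and Socs1, a feedback inhibitor of Jak kinases, by -0.44 at a dim level. Sting1, the adaptor of DNA sensing, differed by -0.32 and Tap2, the partner of Tap1, by -0.38.

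Tlr3, the endosomal receptor for double-stranded RNA, had the smallest p of the pathway genes that were higher in Apcmin. It was at 6.93, 7.17 and 7.73 in Apcmin and 4.44, 6.71 and 5.51 in WT. Its groups did not overlap, and its difference was 1.72 (SE 0.55, 95% interval 0.42 to 3.03, adjusted p = 0.954). The spread was an SD of 0.41 in Apcmin and 1.13 in WT, and WT replicate 1 was lowest. Oas1b differed by 0.42 and Nlrc5, which drives genes of antigen presentation, by 0.15. The chemokine gene Cxcl10, singled out after its values were seen, had a wider range than Mx1 and Rsad2. It was at 5.67, 6.75 and 5.13 in Apcmin and 7.65, 7.07 and 5.70 in WT, with WT replicate 1 highest and Apcmin replicate 3 lowest, a 5.73-fold range. Cxcl9, a dim chemokine gene with a 5.79-fold range, had its highest value on Apcmin replicate 3. Its values were 3.77, 4.33 and 5.27 in Apcmin and 3.87, 3.26 and 2.73 in WT. The Cxcl9 difference was 1.17, and its 1 further probe set did not share that sign. Of the 36 further induced genes on the pathway list, 22.2% were highest on WT replicate 1 and 30.6% lowest on Apcmin replicate 3. In genes with a mean of at least 6 these shares were 18.7% and 14.0%.

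Markers of the sorted cells and of other blood cells also differed between arrays. The summed intensity of the 8 LKS+ markers lay between 7657 and 8617 in Apcmin and between 7304 and 8821 in WT. It was lowest on WT replicate 1, where 0 of the 8 were above their own mean and where the interferon response genes had their highest median deviation. The 5 neutrophil markers summed to between 7688 and 8328 in Apcmin and between 6639 and 10120 in WT, and WT replicate 1 was lowest in all 5. For the 4 erythroid markers the sum lay between 444 and 1266 in Apcmin and between 403 and 1431 in WT, with WT replicate 1 highest. The bright erythroid markers Klf1 and Ermap differed by 0.03 and 0.24, and the dim Hba-a1 and Slc4a1 by -0.45 and -1.49. The 9 macrophage and monocyte markers summed to between 609 and 697 in Apcmin and between 642 and 861 in WT, with WT replicate 1 highest and Apcmin replicate 3 lowest. Csf1r, Cd68 and Ccr2 made up 91.8% of that sum over the arrays, and Adgre1, C1qa and Itgam were under 4 on every array. The 7 T and NK markers summed to between 1621 and 1900 in Apcmin and between 2162 and 2197 in WT, again with WT replicate 1 highest and Apcmin replicate 3 lowest. Nkg7 alone made up 96.9% of it, at 10.66, 10.84 and 10.61 in Apcmin and 11.06, 11.03 and 11.05 in WT, so the separation is that of 1 gene. The 7 plasmacytoid dendritic cell markers summed to between 1921 and 2383 in Apcmin and between 2108 and 2305 in WT, with Apcmin replicate 3 lowest. Tcf4 and Irf8 made up 91.8% of that sum, while Siglech, Ccr9 and Spib had means under 4. The 5 B cell markers summed to between 519 and 622 in Apcmin and between 579 and 772 in WT, of which Ighm and Cd79b made up 96.2%. The part of these cells in the array pattern of the interferon response genes was not tested.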

How the data were processed

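RNA of sorted LKS+ cells was hybridised to 1-colour Affymetrix mouse arrays, 3 per genotype. The values the authors deposited are linear intensities, already normalized between arrays, with 1 value for each probe set. The tool listed by the submitters' processing notes is RMA, without a version, and whether background was subtracted is not stated there. The log2 of these deposited intensities was taken with no pseudocount. Leaving out 64 controls of 45101 probe sets, 45037 were fitted in limma 3.58.1 (R 4.3.3; lmFit, eBayes, genotype only, two-sided), with Benjamini-Hochberg adjustment over all of them. Platform annotation gave 1 gene symbol to 34945 probe sets, several to 932 and none to 9160. The brightest single-symbol probe set stood for a gene, and probe sets of Ifit3, Oas1a, the Irgm genes and Trim30a, which have close relatives, may also detect those and are uncertain. The probe sets of Trim25, Ifi35 and Tlr3 have names ending in s_at and may likewise detect more than 1 transcript.

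The members and lists were chosen with earlier results of these data known. Values on every array were given, per role, for the 2 members with the highest mean and the 2 with the smallest p, and for members whose groups did not overlap. Of other pathway genes the 3 with the smallest p in each direction (mean of at least 6 in the higher group) and fixed signalling genes were named, and the 5 genes most like the members. Irf7, Rsad2, Cxcl9 and Cxcl10 were given in full, and the remaining members as differences, after their values were seen. Some genes were not analysed here.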

Additional observations from a re-analysis of the deposited data

How the results depend on the processing

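The number of arrays, 3 per genotype, limits the precision. No interferon response gene passed the adjusted threshold in limma under any of the 16 alternatives, and the smallest adjusted p was 0.333, without WT replicate 3. At an unadjusted p under 0.05 the count was 1 with a floor at 4, 2 with a pseudocount of 16, 2 without WT replicate 3 and 0 otherwise. The median difference was -0.11, was -0.06 with all probe sets of a gene averaged, and lay between -0.19 and -0.04 without each array in turn. The number of members with a higher mean in Apcmin was 10, 6 after a further quantile normalization and 7 to 15 without each array in turn. The number whose groups did not overlap was 3 of 38, against 7.73% of all genes, and 4 to 14 without each array in turn. It was 14 without Apcmin replicate 2 (17.2% of all genes), 6 without WT replicate 2 (15.1%) and 11 without WT replicate 3 (32.8%). The cause of these shifts was not tested. Averaging all probe sets moved Trim30a to 0.28, Eif2ak2 to -0.01 and Xaf1 to 0.49, and 0 of 606 values of single genes passed the threshold. In 19 of the 38 members the sign held without each array in turn. Same-numbered arrays correlated with -0.047, -0.073 and -0.228 in their deviations from the genotype means over all probe sets. Over probe sets with a mean of at least 6 the values were 0.05, -0.054 and -0.247. Deviations within groups of 3 arrays are not independent, so these values cannot decide whether the numbers pair the samples. With the replicate block the median was -0.11, with 10 members higher and 0 past the threshold. The median r between members was 0.31 with Spearman's rho, 0.33 over members with a mean of at least 6, and 0.20 (without Apcmin replicate 3) to 0.41 (without WT replicate 3) without each array in turn.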
